A study of Mus musculus with 6 samples.

Results

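The genes described here are those of fibroblast growth factor (FGF) signalling in newborn mouse cortex: the FGF ligands, 4 receptor genes, and the Sprouty, Spred and Etv genes that act downstream. They were taken by a rule on gene names, set with earlier results of these data known. The rule took the rows named Fgf with a number, Fgfr1, Fgfr2, Fgfr4, Fgfrl1, Spry1 to Spry4, Spred1 to Spred3, Etv1, Etv4 and Etv5. This gave 35 genes of the 23621 in the deposited table: 14 paracrine ligands, 3 endocrine ligands, 4 intracellular FGF homologous factors, 4 receptors, 4 Sprouty genes, 3 Spred genes and 3 Etv genes. Cortex was taken at postnatal day 0 from 3 Tle4-/- null mutants and 3 wild-type littermates, all on a mixed C57BL/6J, 129S6 and CD1 background, with 1 RNA library each. The Tle4 protein belongs to the Groucho family of transcriptional co-repressors. The labels describe the mutants as null and do not say which part of the gene was altered, and nothing ties libraries to litters, so p-values measure the spread between these samples only.

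FGFs are secreted proteins that bind receptor tyrosine kinases together with heparan sulfate and switch on the Ras-ERK cascade. In the developing forebrain the pathway patterns the cortex along its front-to-back axis and keeps progenitors dividing. Sprouty and Spred proteins inhibit the cascade that induces several of them, and Etv1, Etv4 and Etv5 are ETS-family transcription factors that carry its output to target genes. The intracellular homologous factors share the FGF fold but are not secreted, and bind voltage-gated sodium channels.

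Groucho proteins do not bind DNA themselves and are recruited by partners that include the TCF/LEF factors of Wnt signalling. A pair of motifs was looked for in RefSeq promoters on GRCm38.p6, in the 250 bases before each annotated start: CTTTGA for TCF/LEF and CCGGAA for ETS factors, on both strands. The members had 33 windows, from 25 genes. Of the 33, 4 held the TCF/LEF motif (Etv1, Fgf3, Fgf6 and Fgf23) and 4 the ETS motif (Fgf5, Fgf12, Fgfr4 and Fgfrl1). Over all 32851 mouse windows of this length, 13.8% held the TCF/LEF motif and 12.03% the ETS motif. Only windows that held the TCF/LEF motif could be shown, so its presence in those printed is no finding. Of these 4, the Fgf3 and Etv1 windows are shown. Fgf3 had the largest genotype difference among the members, and the direction of Etv1 depended on 1 library. Both are plus-strand, at chr7:144838362-144838594 and chr12:38779832-38780081, with the motif in capitals, on the reverse strand at bases -197 to -192 and -172 to -167 from the start. Annotated exon bases at the end of the Fgf3 window are left out. The starts used here are RefSeq ones. Both windows lie downstream of the deposited gene starts, 144838083 for Fgf3 and 38779380 for Etv1, and so inside the deposited gene spans.
Fgf3: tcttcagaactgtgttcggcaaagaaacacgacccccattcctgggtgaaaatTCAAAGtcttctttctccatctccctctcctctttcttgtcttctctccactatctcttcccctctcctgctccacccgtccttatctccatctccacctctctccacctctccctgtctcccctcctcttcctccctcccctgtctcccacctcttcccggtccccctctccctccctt
Etv1: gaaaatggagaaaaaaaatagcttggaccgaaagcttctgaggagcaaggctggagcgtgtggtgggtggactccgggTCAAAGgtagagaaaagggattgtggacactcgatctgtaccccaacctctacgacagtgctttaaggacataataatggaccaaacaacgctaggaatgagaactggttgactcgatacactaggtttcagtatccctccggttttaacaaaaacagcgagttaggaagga
A match is a run of letters and not a measured binding site. The Fgf3 window had 54.9% G and C, most of it C in a run of C and T, and the Etv1 window 46.4%.

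The libraries held 18617408 to 21632607 counts. Tle4 stood at 69.3, 86.8 and 86.8 CPM in the mutants, against 198, 142 and 166 CPM in the wild types (log2 fold change -1.06, edgeR adjusted p = 0.0377). It was lower in every library labelled mutant, and transcript was still counted in all of them. The adjusted p missed the threshold of 0.05 in 5 of the 6 fits that left out 1 library, and was 0.0306 without wild-type replicate 2. All 7 markers of cortical projection neurons were tested, with a summed level of 2189.6 to 2659 CPM in the mutants and 2348 to 2744 CPM in the wild types. The 5 markers of cerebellum, thalamus and midbrain summed to at most 5.13 CPM in any library. Of 3 choroid plexus markers, Ttr stood at 93.3 CPM in mutant replicate 3 and at most 0.224 CPM in any other library. Folr1 stood at 1.30 CPM in mutant replicate 3 and at most 0.090 CPM elsewhere. Kcne2 was highest in wild-type replicate 3, at 1.29 CPM. Xist, which females express, was high in every mutant, at 3407 CPM or more, and below 2 CPM in every wild type. The Y-linked gene Ddx3y stood at 74.5 and 84.9 CPM in wild-type replicates 1 and 2. It was at 0.107 CPM in wild-type replicate 3, so neither gene gives the sex of that library. Only the mutants had high Xist, so sex and genotype cannot be told apart, and this touches every comparison that follows.

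Levels ran over more than 3 orders of magnitude among the members, as the plot of deposited FPKM by library shows. Per length, the 3 highest were Fgf13 at 28.0 FPKM over the 6 libraries, Fgf12 at 15.7 and Spred1 at 14.8, followed by Spry2 at 12.02. The receptor Fgfr1 averaged 3.04 FPKM. No secreted ligand exceeded the 1.84 FPKM of Fgf18, and the next were Fgf10 at 0.862, Fgf9 at 0.680 and Fgf22 at 0.598. Every secreted ligand was thus below the intracellular homologous factors and below Fgfr1.

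**Figure D1:**
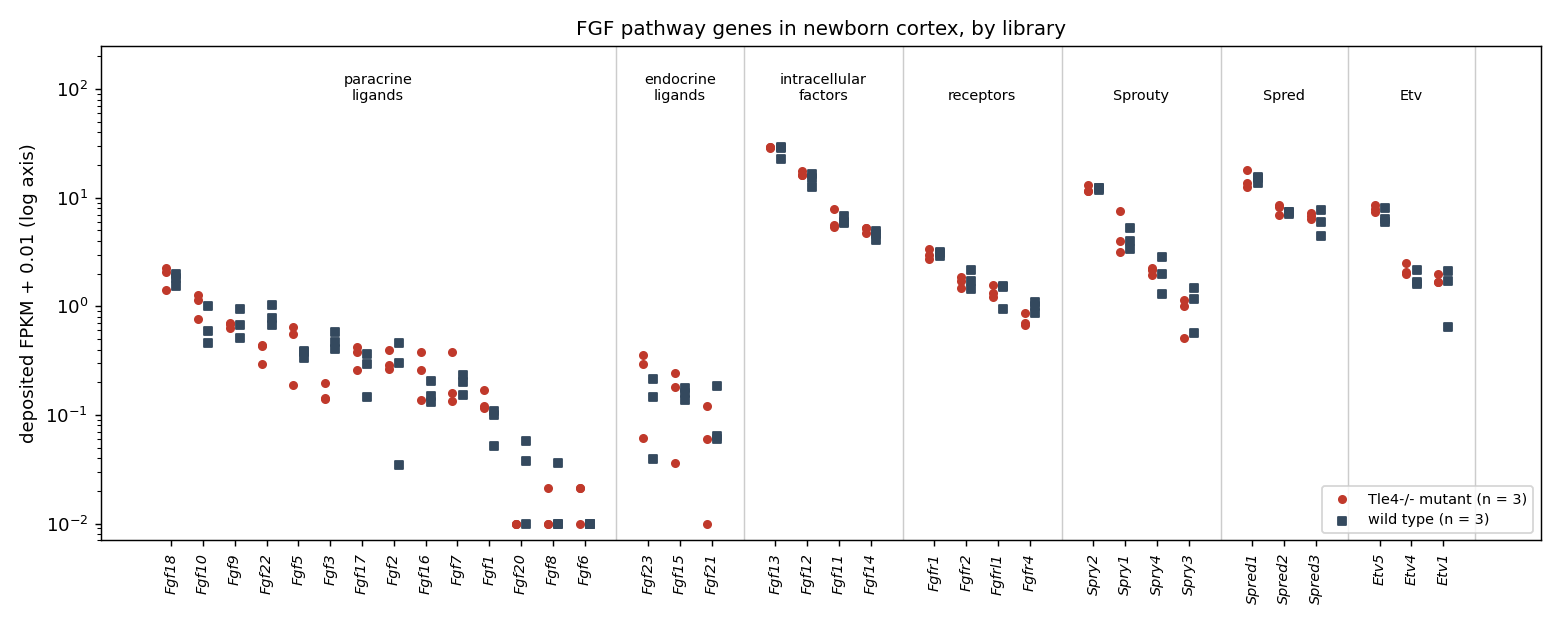
Deposited FPKM plus 0.01 (log axis) of the 35 genes in each library, mutants as circles and wild types as squares (n = 3 each), grouped by role. Fgf13 and Fgf12 lie highest, up to 29.4 FPKM for Fgf13, and Fgf6, Fgf8 and Fgf20 are at or near 0.

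Of the 35 members, 27 had enough counts to be tested. None passed the adjusted threshold in either direction by edgeR's quasi-likelihood test, where 0.111% of the 16274 genes tested did (0.0492% higher and 0.0614% lower in the mutants). The DESeq2 Wald test and limma-voom called 0 members as well. At an unadjusted p under 0.05 there was 1 member, Fgf3, where 3.45% of all genes stood below that value and 1.73% did so with a lower level in the mutants. The mutants and wild types did not overlap for 3 of the 27 (Fgf3 lower, Fgf1 and Fgf12 higher in the mutants), where 7.93% of all genes did not (4.18% higher and 3.75% lower in the mutants). The median log2 fold change of the members, mutant over wild type, was 0.13, and 21 of 27 lay above 0. Over all genes tested the median was -0.01, with 48.7% above 0. Leaving out wild-type replicate 3 gave the same 27 members a median of 0.03. In tissue RNA, fewer cells of a type and less RNA per cell cannot be told apart.

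**Figure D2:**
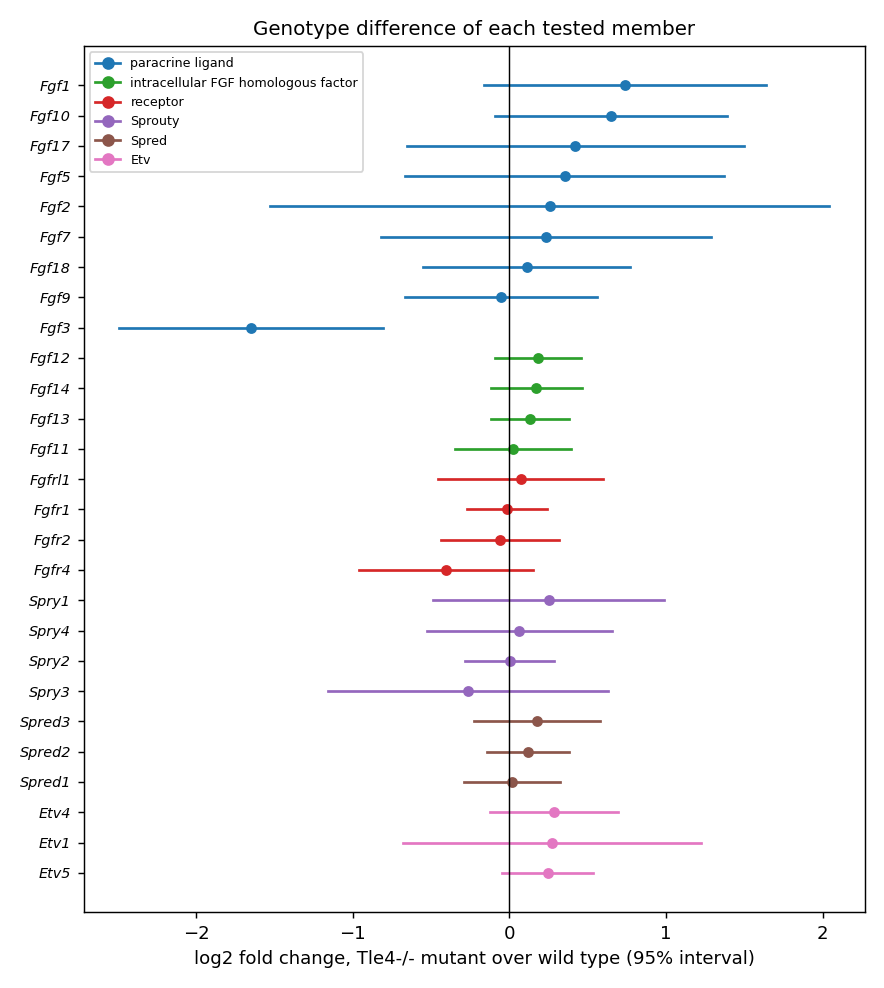
Log2 fold change of the 27 tested members, mutant over wild type, with 95% intervals from the edgeR fit, coloured by role. The interval of Fgf3, from -2.49 to -0.81, is the only one that does not reach 0.

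Fgf3, a ligand known from inner ear and hindbrain development, had the largest difference among the members. It was counted 8, 7 and 10 times in the mutants, against 32, 24 and 24 times in the wild types. Scaled, it stood at 0.374, 0.366 and 0.521 CPM in the mutants, against 1.63, 1.08 and 1.29 CPM in the wild types. The highest mutant was still below the lowest wild type. The log2 fold change was -1.65 (SE 0.37), with a level of 0.319 of the wild type and a 95% interval of 0.178 to 0.571. The unadjusted p was 0.00154 and the edgeR adjusted p over all genes 0.433, so the difference did not pass. The authors' deposited table gives Fgf3 a p of 0.000328 and an adjusted p of 0.102, the lowest adjusted p among the members. The gene (ENSMUSG00000031074) lies on chromosome 7 from 144838083 to 144844436, and no exon of another annotated gene overlaps its exons. Fgf3 is named because of its value, since its mean of 0.876 CPM was below the 1 CPM set for named genes. It also passed the count filter through the wild types, because not every mutant library reached the level the filter asks for. Its values are therefore given as a description.

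Markers of the striatum, which lies beside the cortex, had a summed level of 60.4 to 75.2 CPM in the mutants and 76.3 to 127 CPM in the wild types. Of the 7 markers, 6 lay below 0, and none was at 0 or passed the adjusted threshold. For 4 the mutants were all below the wild types, where 3.75% of all genes were, and the other markers overlapped. Drd1, a dopamine receptor of striatal neurons, stood at 26.6, 23.9 and 12.7 CPM in the mutants, against 19.1, 15.3 and 28.3 CPM in the wild types. The 2 with the smallest p were Ebf1, a transcription factor of the striatum (log2 fold change -1.39), and Drd2, another dopamine receptor (-1.24). Their part in the Fgf3 difference was not tested.

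Fgf10 and Fgf1 leaned the other way. Fgf10, a ligand that acts on early cortical progenitors as they become radial glia, stood at 5.75, 3.77 and 6.36 CPM in the mutants, against 3.005, 4.85 and 2.26 CPM in the wild types. The groups overlapped, because wild-type replicate 2 was above mutant replicate 2. The log2 fold change was 0.65 (SE 0.33, unadjusted p = 0.0801, edgeR adjusted p = 0.9996), and leaving out 1 wild type moved it to 0.43 (replicate 3) or 1.01 (replicate 2). Fgf1, a ligand without a classical secretion signal, stood at 1.17, 1.204 and 1.77 CPM in the mutants, against 0.458, 0.943 and 1.075 CPM in the wild types. Those groups did not overlap, and the closest libraries held 25 counts (mutant replicate 1) and 20 counts (wild-type replicate 3). Its log2 fold change was 0.74 (95% interval -0.16 to 1.64). It was 0.45 without wild-type replicate 1 and 0.56 when a score of meningeal markers entered the fit. The 10 meningeal markers summed to 207 to 437 CPM in the mutants and 19.1 to 533 CPM in the wild types, lowest in that library.

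The other ligands with enough counts were Fgf18, Fgf9, Fgf5, Fgf17, Fgf7 and Fgf2. Fgf18, the ligand with the highest level per length, stood at 2.48, 2.67 and 1.67 CPM in the mutants and 2.19, 2.29 and 1.83 CPM in the wild types. Its log2 fold change was 0.11, with a 95% interval of -0.55 to 0.77. Fgf9, which neurons release, averaged 3.45 ± 0.184 CPM in the mutants and 3.57 ± 1.05 CPM in the wild types (SD, n = 3 each). Fgf5, Fgf17 and Fgf7 gave log2 fold changes of 0.35, 0.42 and 0.23, each with an interval that spans 0 and with counts of 5 to 44 in every library. None of these 6 ligands had groups that did not overlap.

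Fgf2, a mitogen of cortical progenitors, was nearly missing from 1 wild-type library. It was counted 47, 46 and 65 times in the mutants, against 51, 85 and 4 times in the wild types. The low library was wild-type replicate 3, at 0.215 CPM where the other five held 2.20 to 3.82 CPM. The log2 fold change of 0.26 (SE 0.75) became -0.27 (SE 0.33) without that library. Fgf2 (chromosome 3, 37348346 to 37410108) shares 640 of its 6782 annotated exon bases with Nudt6 on the opposite strand. Nudt6 had 56, 55 and 52 counts in the mutants, against 55, 48 and 27 in the wild types, and was lowest in the same library. Whether counting used the strand is not given in the sources used here.

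The ligands best known for patterning the front of the cortex were barely counted at this age. Fgf8 had 1, 0 and 0 counts in the mutants, against 0, 0 and 2 in the wild types. Fgf17, its close relative, had 15, 8 and 12 counts in the mutants, against 12, 5 and 9 in the wild types. Fgf6 and Fgf20 had at most 2 counts in any library. A count of 0 allows up to 3 counts, or 0.135 to 0.161 CPM in these libraries, by counting error alone.

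Fgf22 and Fgf16 were counted more often but still too rarely to be tested. Fgf22, a target-derived organizer of presynaptic terminals, had 3, 4 and 4 counts in the mutants, against 10, 7 and 7 in the wild types. The groups did not overlap, with 11 counts over the mutants and 24 over the wild types. The shares of non-overlapping genes given above are over genes tested, and so do not cover Fgf22. Of its annotated exon bases, 82 are shared with Rnf126 on the opposite strand, a gene with 9000 counts over the 6 libraries. Fgf16 had 4 to 13 counts in the mutants and 4 to 6 in the wild types.

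The endocrine ligands, which need klotho proteins as co-receptors and act mainly outside the brain, were all too low to be tested. Fgf15 had 1, 8 and 6 counts in the mutants, against 6, 5 and 5 in the wild types. Fgf23, which regulates phosphate, had 2, 12 and 10 in the mutants, against 5, 8 and 1 in the wild types. Fgf21, a hormone of liver metabolism, had at most 3 counts in any library.

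**Figure D3:**
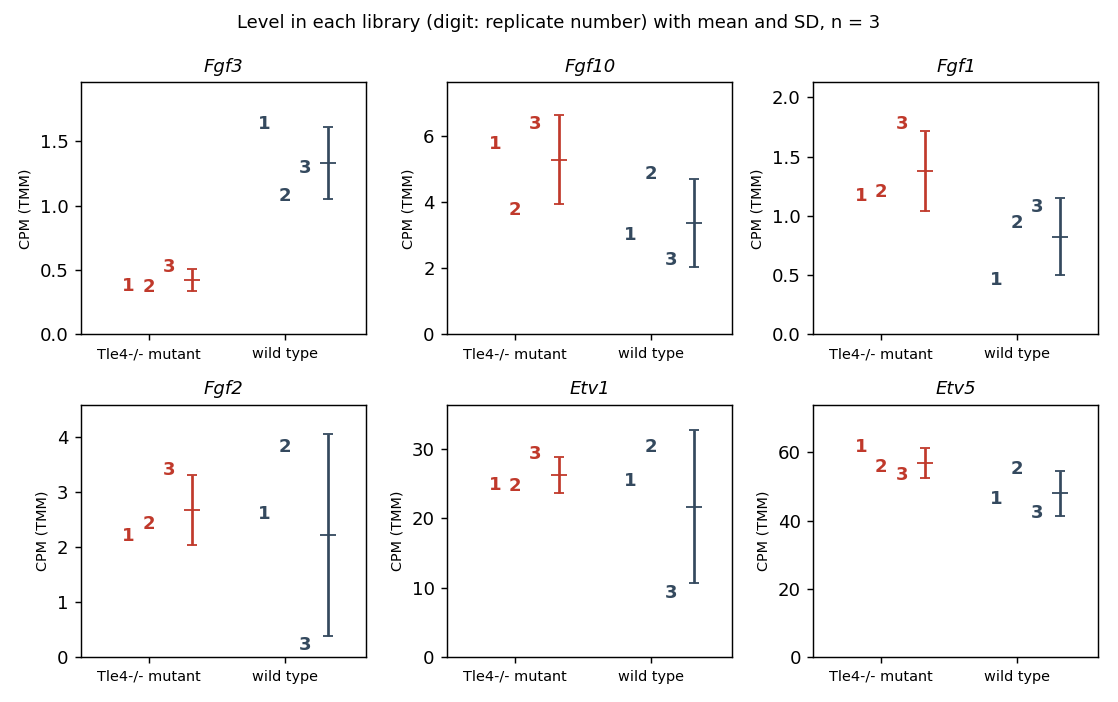
CPM of 6 members in each library, with digits for the replicate number and mean and SD beside them (n = 3 each), mutants on the left. Fgf3 and Fgf1 do not overlap between the genotypes, and wild-type replicate 3 lies far below the other libraries for Fgf2 and Etv1.

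None of the 4 receptor genes of the name rule passed the threshold, and the groups overlapped for all 4. FGF receptors outside the rule were not looked at. Fgfr1, the main receptor of cortical progenitors and on chromosome 8 from 25513654 to 25575714, stood at 48.7, 60.4 and 53.1 CPM in the mutants, against 56.4, 55.3 and 52.1 CPM in the wild types. Its fold change was 0.990 with a 95% interval of 0.828 to 1.18. Fgfr2 stood at 19.6, 22.7 and 25.0 CPM in the mutants, against 19.6, 27.9 and 22.6 CPM in the wild types, with a 95% interval of 0.738 to 1.25-fold. For both genes the libraries of the genotypes were interleaved. Fgfr2 shares 314 of its 10328 annotated exon bases with Ctbp2 on the same strand, a gene with 4608 counts over the 6 libraries.

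Fgfrl1, a receptor that lacks a kinase domain, stood at 7.91, 6.12 and 6.67 CPM in the mutants, against 4.79, 7.45 and 7.47 CPM in the wild types. Fgfr4, the lowest of these 4 receptors per length at 0.862 FPKM, stood at 2.67, 3.45 and 2.82 CPM in the mutants. It stood at 4.48, 3.32 and 4.03 CPM in the wild types. Mutant replicate 2 was above wild-type replicate 2, and the log2 fold change of Fgfr4 was -0.40 (SE 0.25, unadjusted p = 0.136, edgeR adjusted p = 0.9996). Its 95% interval, from 0.514 to 1.11-fold, was wider than those of Fgfr1 and Fgfr2.

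The intracellular homologous factors all had log2 fold changes above 0, and none passed. Fgf13, an X-linked gene, stood at 151, 154 and 155 CPM in the mutants, against 152, 148 and 119 CPM in the wild types. The low value was again wild-type replicate 3. Its fold change was 1.10 with a 95% interval of 0.922 to 1.30. Fgf12 stood at 50.1, 49.8 and 54.0 CPM in the mutants, against 47.9, 48.8 and 38.7 CPM in the wild types. These groups did not overlap, but the closest libraries differed by less than 1 CPM, and the log2 fold change was 0.18 (SE 0.12, unadjusted p = 0.165, edgeR adjusted p = 0.9996). Fgf11 and Fgf14 gave log2 fold changes of 0.02 and 0.17, with overlapping groups.

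Sprouty genes, the feedback inhibitors whose transcripts follow ERK activity, had log2 fold changes on both sides of 0. Spry2, the most abundant of them per length, stood at 23.9, 27.3 and 24.1 CPM in the mutants, against 25.9, 23.7 and 25.5 CPM in the wild types, with a 95% interval of 0.823 to 1.22-fold. Spry1 stood at 10.6, 25.3 and 13.5 CPM in the mutants, against 13.4, 16.8 and 11.1 CPM in the wild types. Its log2 fold change of 0.25 (SE 0.32) rested on mutant replicate 2, and was -0.20 without it. Spry4 and Spry3 gave log2 fold changes of 0.06 and -0.26. Of the annotated exon bases of Spry1, 24.4% are shared with Gm42922 on the opposite strand, which had 187 counts over the 6 libraries.

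Spred genes encode membrane-associated inhibitors of the step from Ras to Raf. Spred1 stood at 97.7, 127 and 89.7 CPM in the mutants, against 98.0, 106 and 107 CPM in the wild types, and its fold change was 1.01 with a 95% interval of 0.817 to 1.25. Spred2 stood at 60.5, 57.4 and 48.5 CPM in the mutants, against 53.2, 50.3 and 49.7 CPM in the wild types. The groups overlapped for both, and for Spred3 (log2 fold change 0.18), whose lowest library was wild-type replicate 3.

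All 3 Etv genes had log2 fold changes above 0, and none passed. Etv5, on chromosome 16 from 22381309 to 22439719, stood at 61.7, 55.7 and 53.2 CPM in the mutants, against 46.4, 55.3 and 42.4 CPM in the wild types. Only wild-type replicate 2 reached into the range of the mutants. The log2 fold change was 0.24 (SE 0.13, unadjusted p = 0.0885, edgeR adjusted p = 0.9996), and leaving out 1 wild type gave 0.16 (replicate 3) or 0.36 (replicate 2). Etv4 stood at 11.97, 15.2 and 12.7 CPM in the mutants, against 10.4, 12.6 and 9.67 CPM in the wild types, with a log2 fold change of 0.28 (SE 0.18).

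Etv1, which also marks projection neurons of layer 5, stood at 24.7, 24.6 and 29.2 CPM in the mutants, against 25.4, 30.3 and 9.24 CPM in the wild types. Wild-type replicate 3 held 0.332 of the mean of the other wild types. The log2 fold change was 0.27 (SE 0.40), and -0.09 (SE 0.15) without that library, so its direction depended on that sample. Etv1 lies on chromosome 12 from 38779380 to 38868215. Fezf2, a regulator of subcerebral projection neurons of the same layer, stood at 173, 140 and 175 CPM in the mutants, against 77.9, 61.9 and 57.2 CPM in the wild types. The log2 fold change of Fezf2 was 1.31 (edgeR adjusted p = 0.0117), so it passed the threshold where Etv1 did not.

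Wild-type replicate 3 was the lowest library for 11 of the 27 tested members and the highest for none. Over all genes tested it was the lowest for 22.9% and the highest for 21.2%. Without it, the log2 fold change moved down for 18 of 27 members, by 0.53 for Fgf2, 0.36 for Etv1 and 0.24 for Spry4. Members above 0 then numbered 17 of 27, where 8137 of the 16620 genes tested in that fit lay above 0. Among the 10 Sprouty, Spred and Etv genes, 9 lay above 0 with all libraries (median 0.15) and 6 without this one (median 0.03). This library had 2 counts of the Y-linked gene Ddx3y, which stood at 74.5 and 84.9 CPM in the other wild types. Its Xist level was 1.99 CPM, so it showed neither gene. The part of sex in the members' levels was not tested. Mutant replicate 2 was the highest library for 8 of the 27 members and the lowest for 2. Over all genes tested it was the highest for 13.2% and the lowest for 15.3%. The fit without mutant replicate 2 left 17 members above 0, with a median of 0.10 over the members it tested.

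**Figure D4:**
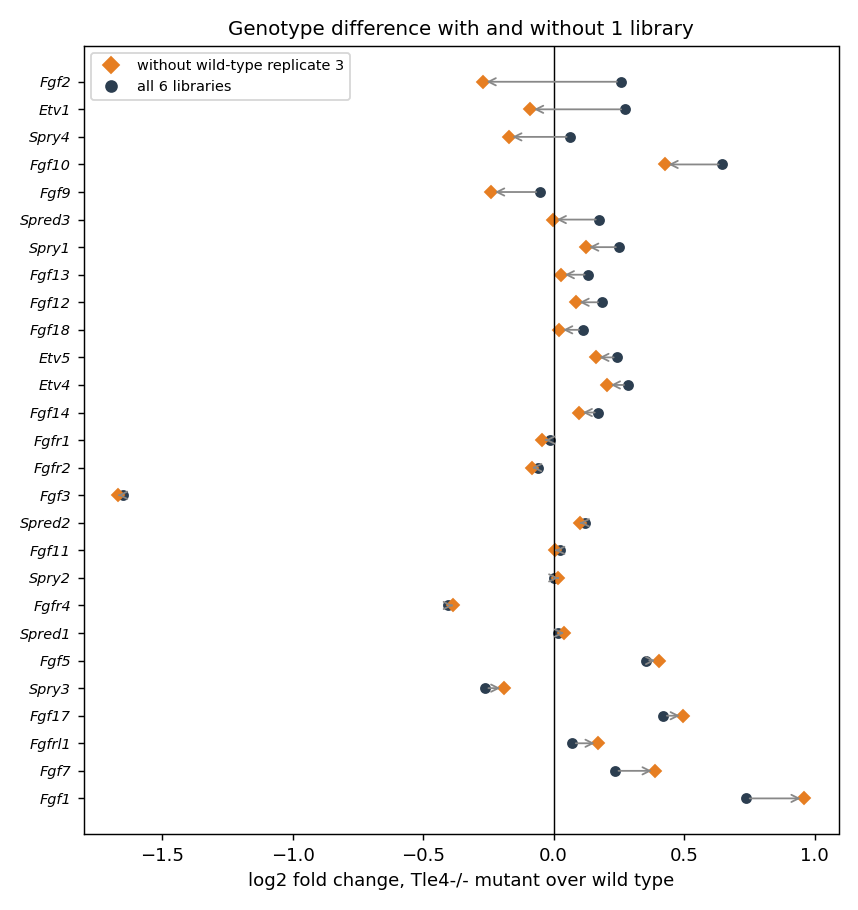
Log2 fold change, mutant over wild type, of the 27 tested members with all 6 libraries (circles) and without wild-type replicate 3 (diamonds). Arrows run to the left for 18 members, farthest for Fgf2 and Etv1, and Fgf3 stays near -1.65.

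Radial glia, the progenitors of the cortex, were followed with 10 markers. Of these, 9 lay above 0, where 48.7% of all genes did. The median log2 fold change of the markers was 0.24, and none passed the adjusted threshold. Nes, an intermediate filament gene, and Ptprz1, a receptor phosphatase gene, were higher in every mutant than in any wild type. Of all genes tested, 4.18% were so. The log2 fold changes were 0.25 for Nes (unadjusted p = 0.0364) and 0.33 for Ptprz1 (unadjusted p = 0.00934), each with an edgeR adjusted p of 0.9996. The summed level of the 10 markers was 1781 to 2066 CPM in the mutants and 1384 to 1833 CPM in the wild types. It was lowest in wild-type replicate 3, and no marker was at 0. Oligodendrocyte lineage markers lay above 0 in 5 of 5 and astrocyte markers in 4 of 5, and none of them passed. Their part in the levels of the Etv and Sprouty genes was not tested.

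The rest of the pathway was read from 4 lists. No gene of any list passed the adjusted threshold. Of 7 co-receptors and ligand-binding partners, 6 were tested, 3 above and 3 below 0, with a median of 0.04 that turned to -0.090 under the filter at a mean of 1 CPM. Fgfbp1, a carrier that frees FGFs from the matrix, stood at 1.54, 3.40 and 2.40 CPM in the mutants, against 0.153, 2.24 and 0.645 CPM in the wild types. Its log2 fold change was 1.24 (SE 0.75, unadjusted p = 0.142, edgeR adjusted p = 0.9996). It ranged from 0.74 (wild-type replicate 1 left out) to 2.61 (wild-type replicate 2 left out). Its lowest library, wild-type replicate 1, was also the lowest for the meningeal markers. With the meninges score in the fit, the log2 fold change was 1.002 (SE 0.35, unadjusted p = 0.0173). Fgfbp1 did not pass there, and its adjusted p was 0.455 or more in every alternative fit. The related Fgfbp3 gave 0.17.

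Of 15 signal transduction genes, 5 lay above 0 and 10 below, with a median of -0.08. Ptpn11, which encodes the phosphatase that couples receptors to Ras, stood at 176, 104 and 106 CPM in the mutants, against 187, 189 and 197 CPM in the wild types. All mutants were below all wild types, with mutant replicate 1 close to them. Of all genes tested, 3.75% were lower in this way. The log2 fold change was -0.57 (SE 0.20, unadjusted p = 0.0211, edgeR adjusted p = 0.9996). Without mutant replicate 1 it was -0.86, with an edgeR adjusted p of 0.0297. Sos1, a Ras exchange factor, gave -0.15.

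Of 9 other ERK feedback and response genes, 6 lay above 0 and 3 below, with a median of 0.10. Ier2, an immediate early gene, gave 0.31 with all mutants above all wild types, where 4.18% of all genes were. Dusp5, an ERK phosphatase, gave -0.54. Of 7 genes that pattern cortical areas, 3 lay above 0 and 4 below, with a median of -0.09. Nr2f1, which opposes frontal identity, stood at 208, 264 and 335 CPM in the mutants, against 310, 314 and 313 CPM in the wild types (log2 fold change -0.22), and Emx2 gave 0.26.

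For the 16 members with a mean of at least 5 CPM, log2 fold changes ran from -0.06 to 0.28. Their 95% intervals together reached from 0.626 to 2.33-fold, the upper bound belonging to Etv1. Over all 27 members the bounds reached from 0.178-fold for Fgf3 to 4.11-fold for Fgf2.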

How the data were processed

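RNA of 6 cortices was sequenced, 3 per genotype. Tools listed in the submitters' processing notes are edgeR, StringTie and HISAT2 2.0.4, with the builds GRCm38.p4 and mm10. Which program counted the reads, with which annotation and strand setting, is not given in the sources used here. The authors deposited, per the file headers, a count and an FPKM for every gene in each library, plus a p-value from their own comparison, raw and adjusted. For the members the ratio of deposited FPKM to CPM varied little over libraries (CV 1.67%), so FPKM served only to compare levels between genes.

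Counts were tested with edgeR 4.0.16 in R 4.3.3: filterByExpr, TMM scaling, a robust quasi-likelihood fit of genotype, 2-sided, with Benjamini-Hochberg adjustment over all 16274 genes tested and a threshold of 0.05. CPM are TMM-scaled. SE was derived from the log2 fold change and its F statistic, and intervals (95%) use the fit's degrees of freedom. Counts were simulated for this comparison over 16025 genes, with 200 well-counted genes changed. Of the changes, 77% of 2-fold and 98% of 4-fold ones were called, with 7 false calls among 182. The simulation gave each gene only the typical spread at its level, and had 182 calls where the data had 18. Its shares therefore do not give the share of real changes that would be called among the members.

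Alternatives were DESeq2 1.42.0 size factors or Wald test, limma-voom (limma 3.58.1), no filter beyond 1 count, a mean of 1 CPM, a replicate block, no X or Y genes, a meninges score as covariate, and each library left out. Members and lists were chosen with earlier results of these data known. Full values are given for the 4 receptors, the 2 highest members of each class per length, and the 5 members with the smallest p above 1 CPM; for pathway lists, the 2 smallest p. Marker genes are named only beside a result. Fgf2, Fgf3, Fgf16, Fgf22, Etv1 and others outside this rule were named after their values were seen. All 35 members were in GENCODE M21 on the same chromosome. Exon overlaps come from that annotation, promoters from RefSeq (GRCm38.p6). Coordinates are the deposited ones, on GRCm38.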

Additional observations from a re-analysis of the deposited data

How the results depend on the processing

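No member passed the adjusted threshold under any of the 14 alternatives. The number of genes called over all genes, 18, was 58 by the DESeq2 Wald test and 8 to 19 with 1 library left out. With the replicate block it was 9; the numbers were not taken to pair the samples, since the deviations of same-numbered libraries correlated at -0.063 to 0.10. Members at an unadjusted p under 0.05 numbered 0 with the filter at a mean of 1 CPM, which removes Fgf3, and 1 to 3 with 1 library left out. The members' median log2 fold change was 0.034 to 0.19 over the members each fit tested with 1 library left out, and lowest without wild-type replicate 3.

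Fgf3 kept its direction in the 13 alternatives that tested it, from -1.83 to -1.48, with edgeR adjusted p between 0.438 and 0.9999 with 1 library left out. Tle4 kept its direction in all 14, from -1.17 to -0.93, but its adjusted p missed the threshold by limma-voom (0.0646), with the replicate block (0.207) and in 5 of the 6 fits that left out 1 library (0.0784 to 0.162). The median of the co-receptor list was -0.090 with the filter at a mean of 1 CPM and 0.021 to 0.19 with 1 library left out. Log2 fold changes close to 0 changed sign, and the cause was not tested: Spry2 was -0.0011 with DESeq2 size factors and -0.0010 by the Wald test, Spred1 was -0.0012 by limma-voom and -0.038 with the meninges covariate, and Fgfrl1 was -0.039 with that covariate. With 1 library left out, log2 fold changes ran from -0.10 to 0.059 for Fgfr1, -0.17 to 0.092 for Fgfr2, -0.11 to 0.17 for Fgfrl1, -0.018 to 0.29 for Fgf18, -0.061 to 0.041 for Spry2, -0.20 to 0.49 for Spry1 and -0.15 to 0.12 for Spred1. They ran from -0.27 to 0.91 for Fgf2, -0.089 to 0.60 for Etv1 and -0.24 to 0.0034 for Sos1. Fgf3 rests on 7 to 32 counts a library, and 8 members were too low to be tested. The SE of Fgf2 was 0.75 with all libraries and 0.33 without wild-type replicate 3.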
